A study of Mus musculus with 6 samples.

Results

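The 36 genes described here are those of glycolysis and of the transcriptional response to low oxygen, chosen by symbol: 16 glycolytic enzymes, 4 glucose and lactate transporters, 3 regulators of glycolytic flux and 13 genes of oxygen sensing and its targets. All 36 had a row among the 23508 genes of the count table, and all 36 were among the 16755 genes with enough counts to test. RNA was sequenced from tumors of 4T1, a transplantable mouse mammary carcinoma line that lacks the hormone receptors targeted in breast cancer therapy, in a study of electrical nerve activity within the tumor. The groups were 3 tumors collected on the day of the first activity peak (with peak) and 3 collected before it (before peak). The labels give no mouse strain, tumor age, site or agent. They do not say whether each tumor came from its own animal, and where they did not, p-values cover a spread among samples that may be technical. The peak cannot be told apart from the day of collection.

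Glycolysis breaks glucose down to pyruvate in the cytosol, and lactate dehydrogenase then turns pyruvate into lactate, which leaves the cell through proton-coupled transporters. When oxygen is scarce, prolyl hydroxylases of the EGLN family stop marking the alpha subunits of hypoxia-inducible factor (HIF) for destruction through VHL, and HIF raises transcription of many glycolytic and hypoxia genes. Solid tumors often hold poorly perfused areas and use glycolysis heavily even where oxygen is present.

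Total counts ran from 10591067 to 14549357 per tumor, and the lowest count of any of the 36 genes in any tumor was 50. The carcinoma label held: Krt8, a keratin of simple epithelia, was at 1254, 1059 and 1716 CPM (counts scaled to library size, TMM-normalised) in with-peak tumors 1, 2 and 3, against 1676, 1552 and 1397 CPM in before-peak tumors 1, 2 and 3. Some tumors stood apart in the RNA of other cells. The 24 skeletal muscle genes summed to 466, 2185 and 2111 CPM in with-peak tumors 1, 2 and 3, against 533, 254 and 176 CPM in before-peak tumors 1, 2 and 3, and all 24 had a positive log2 fold change. The 5 tested erythroid genes summed to 277 to 2148 CPM with peak, against 137 to 250 CPM before peak. The 18 macrophage and monocyte genes summed to 6481 to 10133 CPM with peak, against 3642 to 5889 CPM before peak, all 18 with a positive log2 fold change. With-peak tumor 3 had 3172 CPM over 8 heat shock genes, where the other tumors had 1182 to 1482 CPM. Before-peak tumor 3 had 495 CPM over 9 B and plasma cell genes, where the other tumors had 5.56 to 94.8 CPM. All 12 proliferation genes had a negative log2 fold change. They summed to 1185.2, 1283.2 and 1430.5 CPM with peak, against 1396.7, 1556.5 and 1553.6 CPM before peak. Their mean log2 CPM was 6.21, 6.38 and 6.50 with peak, against 6.52, 6.61 and 6.60 before peak, without overlap. One by one, 4 of the 12 lay lower without overlap, beside 7.38% of all genes. No marker with a row was at 0 in all tumors, which says little, as 23503 of the 23508 rows held at least 1 count. Some markers had no row: 4 of 8 keratinocyte, 7 of 10 neuron and 7 of 8 erythroid genes had one. In bulk tissue, fewer cells of a type and less RNA per cell cannot be told apart.

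Set against transcript length, Gapdh, Pkm, Aldoa and Ldha had the most abundant messages of the list. Levels per kilobase (RPKM, from CPM and the length of 1 principal transcript a gene) were highest for Gapdh, which oxidises glyceraldehyde 3-phosphate, at 1158 ± 89.9 RPKM with peak and 1021 ± 66.8 RPKM before peak (SD, n = 3 each). Pkm, pyruvate kinase, followed at 885 ± 27 and 916 ± 118 RPKM, and Aldoa, the main aldolase, at 879 ± 78.4 and 752 ± 102 RPKM, in with-peak and before-peak tumors. Pkm and Aldoa, neighbours in this order, overlapped in their spread, while Gapdh lay above Pkm in every tumor of both groups. The order within these 4 depends on the length used: with the union of all exons, the median over the 6 tumors was 433 RPKM for Aldoa, 423 for Pkm, 371 for Gapdh and 364 for Ldha. Ldha, the A chain of lactate dehydrogenase, was at 708 ± 66.8 RPKM with peak and 703 ± 41.5 RPKM before peak. At the other end, Slc2a3, a glucose transporter typical of neurons and white blood cells, had 2.61 ± 0.35 RPKM with peak and 2.28 ± 1.35 RPKM before peak. The hypoxia markers lay between: Ddit4, an inhibitor of mTORC1 signaling, was at 177 ± 56.9 and 166 ± 26.5 RPKM, Ndrg1, a stress-induced gene of epithelial cells, at 166 ± 12.6 and 207 ± 55.6 RPKM, Bnip3, a mitophagy receptor, at 106 ± 6.26 and 95.5 ± 17.5 RPKM, and Car9, the cell-surface carbonic anhydrase used as a hypoxia marker, at 50.9 ± 11.4 and 57.0 ± 7.25 RPKM, each with peak and before peak.

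None of the 36 genes differed between with-peak and before-peak tumors once p-values were adjusted over all genes (edgeR quasi-likelihood test, Benjamini-Hochberg adjustment). The same test called 0% of all 16755 genes, and the smallest adjusted p of a member was 0.459, against 0.0828 over all genes. DESeq2 called 0 of the 36 genes, where it called 1.44% of all genes higher and 0.143% lower. At an unadjusted p under 0.05, 1 member was higher and 1 lower in with-peak tumors, where 6.12% of all genes were higher and 3.38% lower. The same 2 genes, Slc16a3 and Slc16a1, were those whose groups did not overlap, which held for 8.13% of all genes upward and 7.38% downward. Of the 36 genes, 20 had a positive and 16 a negative log2 fold change, with a median of 0.03 beside -0.02 over all genes. For 34 of 36 genes the 95% interval of the log2 fold change lay within -1 to 1, and the SE ran from 0.11 to 0.41 with a median of 0.16.

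**Figure D1:**
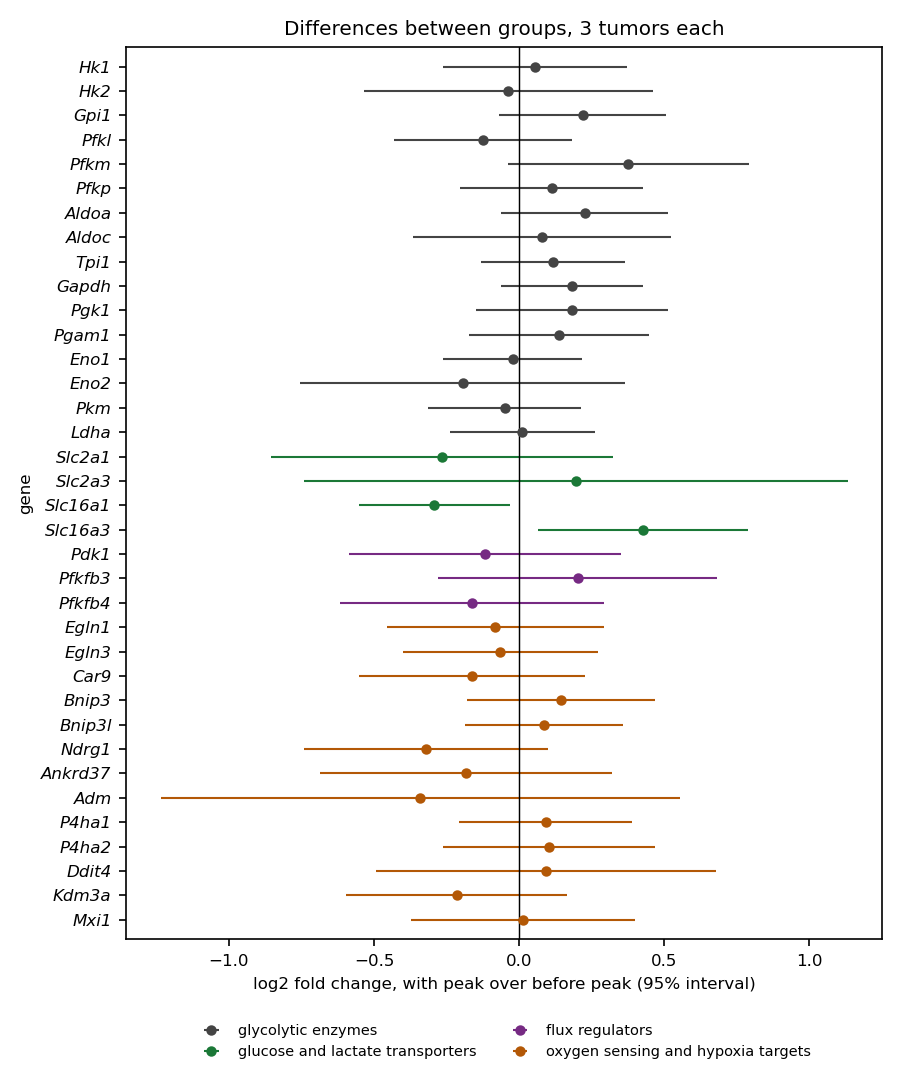
Log2 fold change of each of the 36 genes, with peak over before peak, with its 95% interval from the edgeR fit (3 tumors each; colour gives the role). The intervals of 34 genes include 0; that of Slc16a3 lies above 0 and that of Slc16a1 below it, and only Adm and Slc2a3 have an interval that passes beyond -1 or 1.

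The 16 enzymes had a median log2 fold change of 0.10, with 11 positive and 5 negative. The first steps did not pass the test. Hk2, the hexokinase induced in many tumors and a HIF target, was at 193, 129 and 131 CPM in with-peak tumors 1, 2 and 3, against 126, 199 and 140 CPM in before-peak tumors 1, 2 and 3 (log2 fold change -0.04, 95% interval -0.54 to 0.46). One tumor of each group was high and the groups overlapped. Hk1, the hexokinase of most tissues, had a log2 fold change of 0.05, and Gpi1, which converts glucose 6-phosphate to fructose 6-phosphate, one of 0.22. Among the phosphofructokinases, Pfkp, the platelet-type form, was at 133, 139 and 136 CPM with peak, against 99.8, 142 and 135 CPM before peak (log2 fold change 0.11), where before-peak tumor 1 alone was low. Pfkl, the liver-type form, had a log2 fold change of -0.12. Pfkm, the muscle-type form, had 29.8, 38.1 and 38.4 CPM with peak, against 34.1, 23.3 and 24.4 CPM before peak (log2 fold change 0.38, 95% interval -0.04 to 0.79, edgeR adjusted p = 0.568). Its highest tumors, with-peak 2 and 3, were those with the most skeletal muscle RNA, and before-peak tumor 1, next in both, lay above with-peak tumor 1; the part of muscle in this difference was not tested.

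Nor did any enzyme of the later steps pass the test. Gapdh was at 1771, 1516 and 1646 CPM in with-peak tumors, against 1365, 1552 and 1431 CPM in before-peak tumors (log2 fold change 0.18, 95% interval -0.06 to 0.43). Aldoa, Tpi1 (triose phosphate isomerase), Pgk1 (phosphoglycerate kinase, which makes ATP) and Pgam1 (phosphoglycerate mutase) had log2 fold changes of 0.23, 0.12, 0.18 and 0.14. Pkm was at 2115, 2113 and 2228 CPM with peak, against 2031, 2558 and 2096 CPM before peak (log2 fold change -0.05, 95% interval -0.31 to 0.21). Counts per gene cannot separate its M1 and M2 splice forms. Ldha was at 1176, 1189 and 1387 CPM with peak, against 1182, 1323 and 1218 CPM before peak, with a log2 fold change of 0.01 and an interval of -0.24 to 0.26. Eno1, the ubiquitous enolase, had a log2 fold change of -0.02. The minor brain-type forms Aldoc and Eno2 had log2 fold changes of 0.08 and -0.20 at 34.5 ± 8.58 and 20.5 ± 4.65 CPM with peak, against 32.7 ± 5.33 and 23.4 ± 6.82 CPM before peak.

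The lactate transporters were the members whose groups did not overlap, though neither passed the test after adjustment. Slc16a3 encodes MCT4, the lactate exporter of glycolytic cells, which is also made by glycolytic muscle fibres and activated macrophages. It was at 84.7, 108 and 83.1 CPM in with-peak tumors 1, 2 and 3, against 55.4, 70.5 and 79.2 CPM in before-peak tumors 1, 2 and 3. Every with-peak tumor lay above every before-peak tumor, by a small margin at the closest pair (log2 fold change 0.43, SE 0.16, edgeR adjusted p = 0.459). Summed muscle genes were at 466, 2185 and 2111 CPM in with-peak tumors 1, 2 and 3, against 533, 254 and 176 CPM in before-peak tumors 1, 2 and 3. The summed macrophage genes were higher in every with-peak tumor, as were 10 of the 18 genes one by one, beside 8.13% of all genes. The part of muscle and macrophage RNA in the difference was not tested.

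Slc16a1 encodes MCT1, the transporter that moves lactate in either direction at lower concentrations. It was at 167, 136 and 155 CPM in with-peak tumors, against 197, 183 and 180 CPM in before-peak tumors. Every with-peak tumor lay below every before-peak tumor (log2 fold change -0.29, SE 0.12, edgeR adjusted p = 0.477). Summed carcinoma epithelial genes were at 3124 to 4604 CPM with peak, against 3779 to 4929 CPM before peak, with 10 of 12 log2 fold changes negative. Their mean log2 CPM was 6.40, 6.29 and 6.56 in with-peak tumors, against 6.72, 6.96 and 6.71 in before-peak tumors, without overlap. One by one, 3 of the 12 lay lower in every with-peak tumor than in any before-peak tumor, beside 7.38% of all genes. The part of carcinoma RNA in the lower MCT1 message was not tested. Per kilobase, MCT4 made up 34.1%, 44.7% and 35.4% of the 2 messages in with-peak tumors, against 22.3%, 28.3% and 31.0% in before-peak tumors. With MCT4 higher and MCT1 lower in every with-peak tumor, this order was fixed by the levels above and is no further result.

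The glucose transporters overlapped. Slc2a1 encodes GLUT1, the main glucose transporter of tumor cells and a HIF target. It was at 250, 216 and 275 CPM with peak, against 188, 393 and 309 CPM before peak (log2 fold change -0.26, 95% interval -0.85 to 0.32). The before-peak group held both the highest and the lowest tumor. Slc2a3 was at 8.77, 11.4 and 10.8 CPM with peak, against 4.01, 8.38 and 14.7 CPM before peak (log2 fold change 0.20, interval -0.74 to 1.13), and rests on 50 to 176 counts a tumor.

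**Figure D2:**
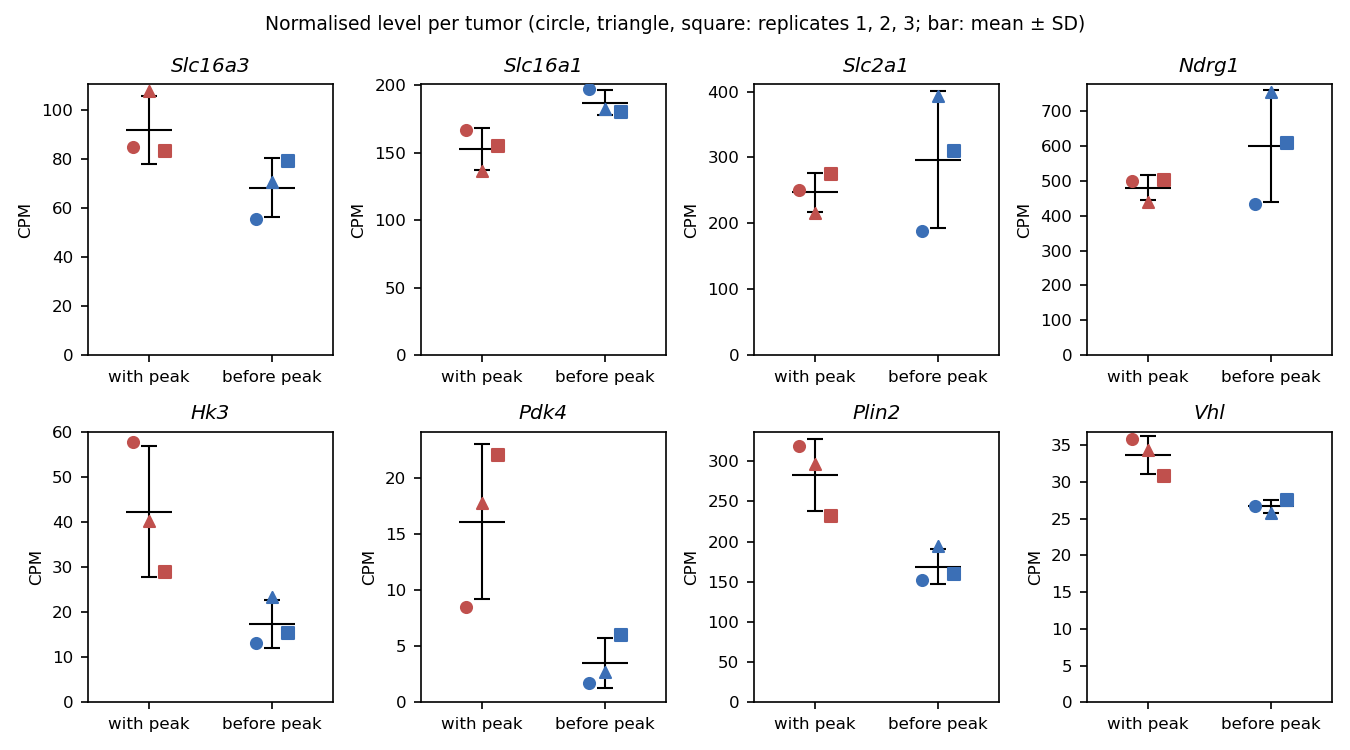
CPM per tumor, each panel with its own axis from 0, for the lactate transporters Slc16a3 and Slc16a1, the HIF targets Slc2a1 and Ndrg1, and 4 other genes of the pathway described below (Hk3, Pdk4, Plin2, Vhl); bars are mean ± SD of 3 tumors. The groups do not overlap for Slc16a3, Slc16a1, Hk3, Pdk4, Plin2 and Vhl, while for Slc2a1 and Ndrg1 the before-peak tumors span a wider range than the with-peak tumors. Of the 36 genes only Slc16a3 and Slc16a1 separate. Groups without overlap held for 8.13% of all genes upward and 7.38% downward.

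The flux regulators gave no difference past their spread. Pdk1, the kinase that shuts pyruvate out of the mitochondrion by inhibiting pyruvate dehydrogenase, was at 60.04, 51.2 and 51.9 CPM with peak, against 45.4, 80.4 and 51.2 CPM before peak (log2 fold change -0.12), with before-peak tumor 2 alone high. Pfkfb3, which makes the activator fructose 2,6-bisphosphate, was at 60.3, 75.0 and 70.8 CPM with peak, against 54.6, 44.2 and 80.5 CPM before peak (log2 fold change 0.20). Its lowest tumor was before-peak tumor 2, the tumor in which Pdk1 was highest. Pfkfb4, its HIF-induced relative, had a log2 fold change of -0.16.

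The 13 genes of oxygen sensing and its targets had a median log2 fold change of -0.07, with 6 positive and 7 negative. Egln3, a HIF prolyl hydroxylase that HIF itself induces, was at 92.2, 90.1 and 88.2 CPM with peak, against 83.6, 117 and 81.9 CPM before peak (log2 fold change -0.07). The with-peak tumors lay within a few CPM of each other and inside the before-peak range. Egln1, the main oxygen sensor, had a log2 fold change of -0.08. Car9 was at 126, 80.0 and 103 CPM with peak, against 116, 130 and 100 CPM before peak (log2 fold change -0.16, 95% interval -0.55 to 0.23), with the lowest tumor with peak.

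Bnip3 was at 187, 174 and 196 CPM with peak, against 135, 196 and 172 CPM before peak (log2 fold change 0.14), and its relative Bnip3l had a log2 fold change of 0.09. Ankrd37, a small ankyrin-repeat gene induced by HIF, was at 16.6, 12.3 and 13 CPM with peak, against 12.9, 19.8 and 14.8 CPM before peak (log2 fold change -0.18). Adm, the vasodilator peptide adrenomedullin, was at 19.99, 28.6 and 42.3 CPM with peak, against 23.2, 53.6 and 38.0 CPM before peak. It varied 2.68-fold between its highest and lowest tumor, and its interval had the lowest lower bound of the list (log2 fold change -0.34, -1.24 to 0.55). Ndrg1 was at 498, 438 and 503 CPM with peak, against 434, 754 and 610 CPM before peak (log2 fold change -0.32, -0.74 to 0.10), with 2 before-peak tumors above every with-peak tumor and 1 below. P4ha1 and P4ha2, the alpha subunits of collagen prolyl hydroxylase, had log2 fold changes of 0.09 and 0.10. Ddit4, the histone demethylase Kdm3a and the Myc antagonist Mxi1 had log2 fold changes of 0.09, -0.21 and 0.01.

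Single tumors stood out across the list, a pattern noticed after the values were seen. Before-peak tumor 2 had the highest CPM of the 6 tumors for 17 of the 36 genes (47.2%), where it was highest for 18.7% of all tested genes. Among the 13 oxygen sensing and target genes it was highest for 9 (69.2%): Egln1, Egln3, Car9, Bnip3, Ndrg1, Ankrd37, Adm, Kdm3a and Mxi1. Before-peak tumor 1 was lowest for 18 of the 36 genes, beside 14.2% of all tested genes. The spread of the list's score, the mean log2 CPM of the 36 genes, followed: 7.27, 7.202 and 7.34 in with-peak tumors 1, 2 and 3, against 7.05, 7.45 and 7.25 in before-peak tumors 1, 2 and 3, so that the with-peak scores lay inside the before-peak range.

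**Figure D3:**
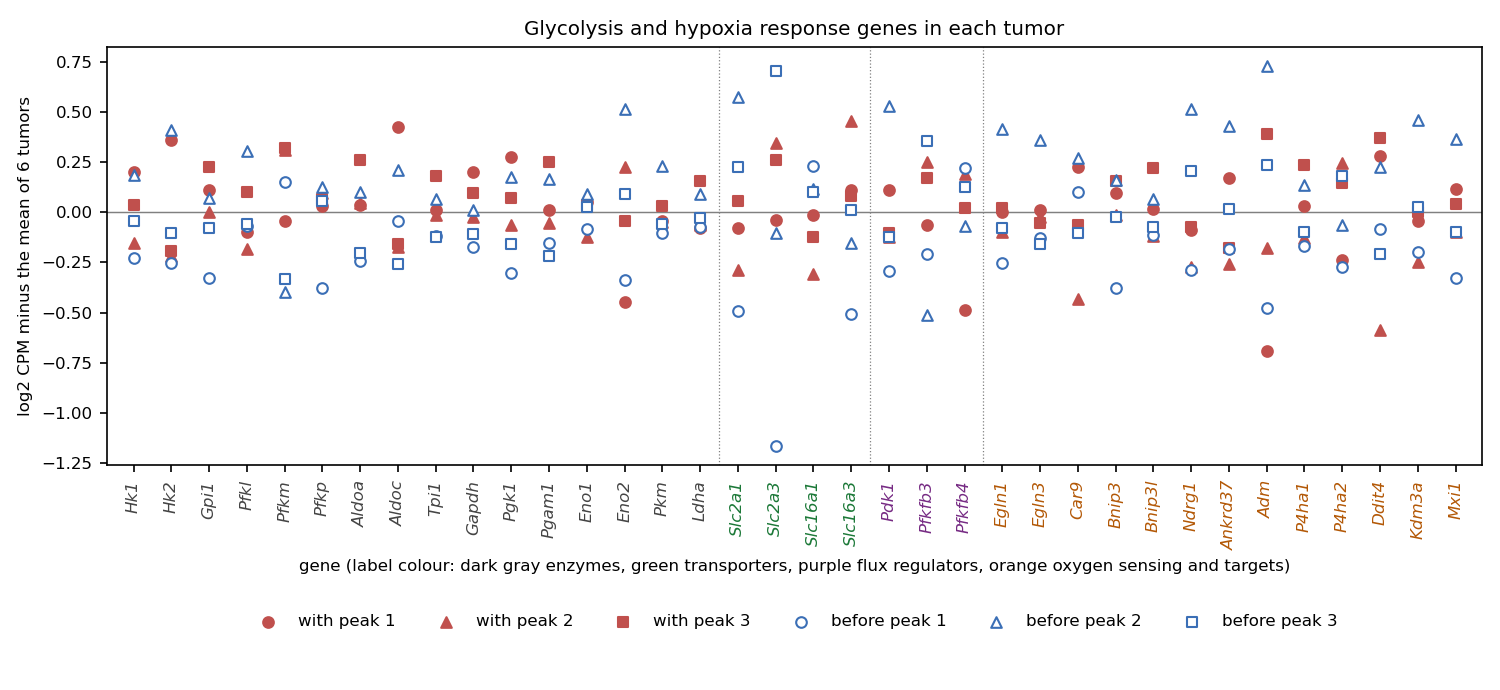
Log2 CPM of each of the 36 genes in each tumor, minus the gene's mean over the 6 tumors (filled red, with peak; open blue, before peak; circle, triangle and square for replicates 1, 2 and 3). The open triangles of before-peak tumor 2 are highest for 17 genes and the open circles of before-peak tumor 1 lowest for 18.

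A list of 35 other hypoxia targets, which shares no gene with the 36, was split the same way. Before-peak tumor 2 was highest for 15 of them (42.9%) and before-peak tumor 1 lowest for 19 (54.3%). Vegfa, the vascular growth factor, was at 145, 140 and 134 CPM with peak, against 90.2, 192 and 138 CPM before peak, with a log2 fold change of -0.0035 and an SE of 0.24. With-peak tumor 2 was highest for 11 of the 35 genes (31.4%) and for 2 of the 36 (5.56%), beside 21.3% of all tested genes. It had the highest summed fibroblast genes, 17302 CPM, followed by before-peak tumor 3 at 11728 CPM. Before-peak tumor 2 also had the highest summed carcinoma epithelial genes of the 6 tumors (4929 CPM) and the lowest summed macrophage genes (3642 CPM); before-peak tumor 1 had 4528 and 5889 CPM. The part of cell makeup in this spread was not tested. The sign of the list's median depended on which tumors were included. Without before-peak tumor 2, 29 of 36 log2 fold changes were positive (median 0.14), and without with-peak tumor 2, 22 were (median 0.06). It was 14 without before-peak tumor 1 (median -0.05), and 17 without with-peak tumor 1, with-peak tumor 3 or before-peak tumor 3 (medians -0.022, -0.0064 and -0.011).

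**Figure D4:**
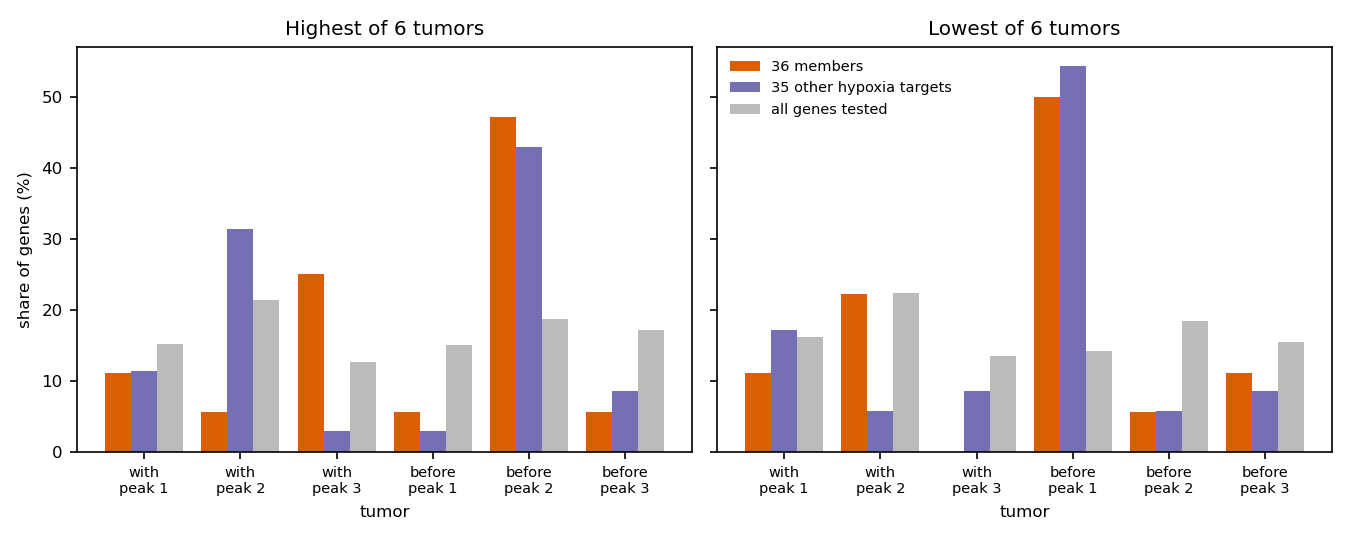
Share of genes, in percent, for which each tumor had the highest (left panel) or lowest (right panel) CPM of the 6 tumors, for the 36 genes, the 35 other hypoxia targets and all tested genes. Before-peak tumor 2 stands out as highest (47.2% and 42.9%, beside 18.7%) and before-peak tumor 1 as lowest (18 of 36 genes and 54.3%, beside 14.2%).

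HIF binds a short core, ACGTG or GCGTG, so the bases before the starts of the genes were searched for it. RefSeq promoter windows (GRCm38.p6) were matched by symbol for 33 of the 36 genes, taking the window nearest the GENCODE start; those of Slc2a3, Bnip3l and Ndrg1 were not matched. RefSeq and GENCODE starts can differ: the RefSeq start used lay 4329 bases from the GENCODE start for Ldha, 5857 for Ankrd37 and 829 for P4ha2. Within the 250 bases before the start, 26 of 33 held ACGTG or GCGTG on either strand (78.8%), beside 38.6% of all 32841 windows of that length. Among the windows of oxygen sensing and target genes it was 10 of 11, and among those of enzymes 10 of 16. These counts cover only the window nearest the GENCODE start. Hk1, Aldoa, Pkm and Mxi1 had no match there but held one in another listed RefSeq window. Gpi1, Tpi1 and Eno2 had 1 listed window each, without a match. The windows of the 33 genes had a median GC content of 62.8%, beside 52.4% over all windows, and of all windows over 60% GC 64.1% held the core. Of the genes highest in before-peak tumor 2 with a window, 13 of 16 held a match, and of the others 13 of 17. A match is a description of the letters and not evidence of binding.

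The windows below belong to both lactate transporters, whose groups separated, and to Bnip3 and Adm, which were highest in before-peak tumor 2. They are printed 5′ to 3′ on the gene's strand, with each ACGTG or GCGTG on either strand (CACGT or CACGC on the printed strand) in capitals; CACGTG is a match on both strands and was counted as 2. The windows lie at chr11:120948817-120949066 (Slc16a3, plus strand), chr3:104638414-104638663 (Slc16a1, plus strand), chr7:138909507-138909756 (Bnip3, minus strand) and chr7:110627407-110627656 (Adm, plus strand).
Slc16a3: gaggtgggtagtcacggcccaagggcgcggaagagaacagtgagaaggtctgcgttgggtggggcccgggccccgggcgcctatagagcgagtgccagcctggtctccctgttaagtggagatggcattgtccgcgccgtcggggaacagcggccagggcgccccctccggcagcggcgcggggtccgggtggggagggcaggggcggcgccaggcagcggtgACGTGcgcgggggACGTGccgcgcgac
Slc16a1: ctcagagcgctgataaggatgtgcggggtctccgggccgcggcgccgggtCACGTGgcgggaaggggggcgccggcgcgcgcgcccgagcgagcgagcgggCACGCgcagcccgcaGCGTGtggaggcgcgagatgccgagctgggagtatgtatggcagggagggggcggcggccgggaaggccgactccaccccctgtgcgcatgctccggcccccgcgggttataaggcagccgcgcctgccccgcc
Bnip3: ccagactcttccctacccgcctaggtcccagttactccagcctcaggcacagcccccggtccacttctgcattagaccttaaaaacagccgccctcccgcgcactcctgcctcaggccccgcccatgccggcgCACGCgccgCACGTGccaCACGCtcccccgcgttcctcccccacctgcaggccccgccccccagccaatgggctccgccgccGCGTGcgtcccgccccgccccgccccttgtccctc
Adm: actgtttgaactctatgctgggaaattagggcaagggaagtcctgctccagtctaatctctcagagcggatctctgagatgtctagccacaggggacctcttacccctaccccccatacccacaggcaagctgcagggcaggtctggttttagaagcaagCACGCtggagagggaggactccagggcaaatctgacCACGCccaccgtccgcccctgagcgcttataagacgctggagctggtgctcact
The Slc16a3 window held 2 matches, both ACGTG near the RefSeq start, which lies 587 bases downstream of the GENCODE start of the gene, and the Slc16a1 window 4, among them 1 CACGTG. Bnip3 held 5 and Adm 2. The windows of both lactate transporters held the core, as did 64.1% of all windows over 60% GC.

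Beside the lactate transporters, the Hk2 and Hk3 shares of hexokinase messages did not overlap between the groups. Per kilobase, Hk3, the hexokinase of myeloid cells and not one of the 36 genes, made up 17.8%, 17.0% and 11.9% of Hk1, Hk2 and Hk3 together in with-peak tumors, against 6.57%, 8.01% and 6.75% in before-peak tumors. The Hk2 share was 34.7%, 31.9% and 31.6% with peak, against 36.6%, 39.8% and 35.9% before peak, and did not overlap between groups. Hk2 CPM itself did overlap (log2 fold change -0.04). Shares within a family are not independent, so a larger Hk3 share lowers the part left to Hk1 and Hk2 together. The order of the Hk2 share is therefore not a separate result beside that of Hk3. Pfkl made up 66.4% ± 2.42 of phosphofructokinase messages with peak and 70.8% ± 2.31 before peak (SD, n = 3 each), also without overlap, by 68.3% at most against 68.4% at least. Aldoa was 98.6% ± 0.42 of aldolase messages with peak and 98.5% ± 0.14 before peak, and Ldha 99.1% ± 0.26 and 99.3% ± 0.31 of lactate dehydrogenase messages. Egln1 and Egln3 were level, at 36.1% ± 1.99 and 35.7% ± 0.62 of the 3 HIF prolyl hydroxylase messages with peak, and 37.5% ± 3.88 and 36.9% ± 2.58 before peak. Shares depend on the transcript length used: with the union of all exons the Hk2 share was 45.0% ± 1.36 with peak and 52.5% ± 1.90 before peak.

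**Figure D5:**
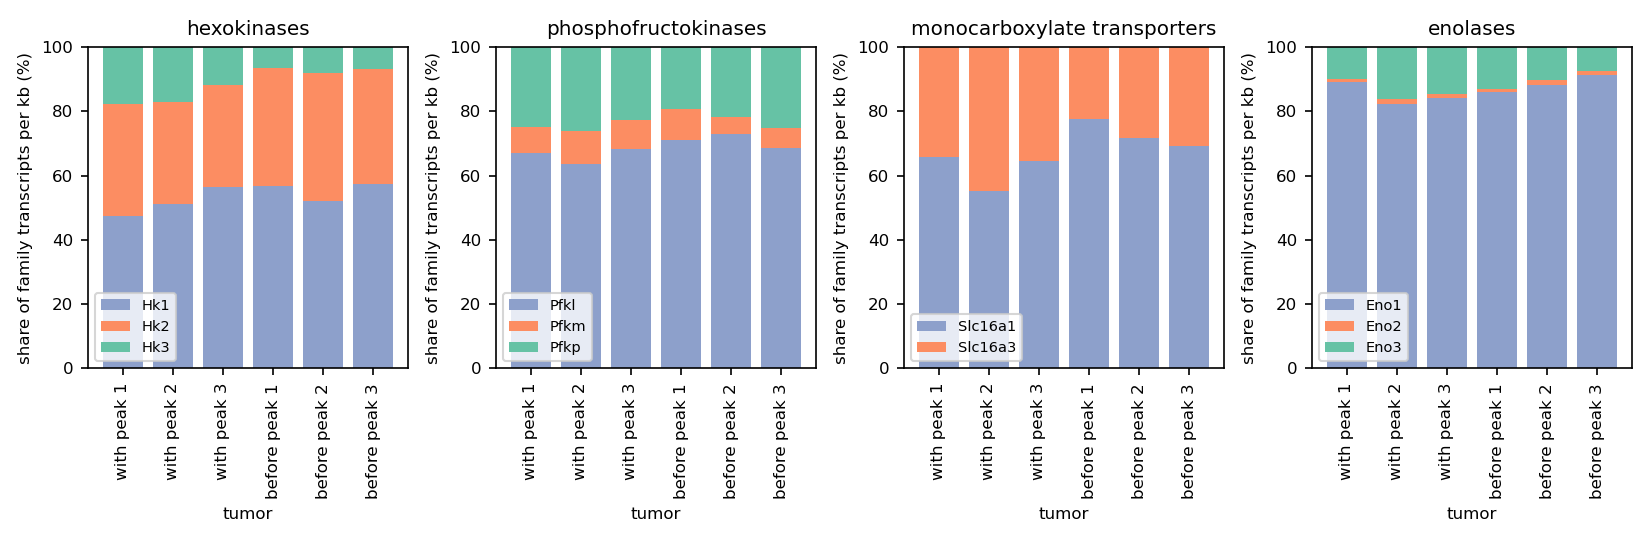
Share of each family's messages per kilobase of transcript, in percent, in each tumor, for hexokinases, phosphofructokinases, the 2 lactate transporters and enolases. Hk3 and Slc16a3 take a larger share in each with-peak tumor than in any before-peak tumor, while the enolase shares overlap. For Slc16a3 this order follows from the levels of the 2 lactate transporters and is no further result.

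Of 30 other genes of glycolysis and pyruvate use, 26 were tested, and edgeR called 0 higher and 0 lower. The log2 fold change was positive for 18 of 26 (median 0.20), beside 7986 of all 16755 genes tested. DESeq2 called 3 of the 26 higher, where it called 1.44% of all genes higher. Hk3 was at 57.7, 40.3 and 28.8 CPM with peak, against 13.2, 23.4 and 15.3 CPM before peak (log2 fold change 1.29, SE 0.30, edgeR adjusted p = 0.268, DESeq2 adjusted p = 0.00171). Summed neutrophil genes were at 473, 299 and 374 CPM in with-peak tumors 1, 2 and 3, against 210, 170 and 362 CPM in before-peak tumors 1, 2 and 3. With-peak tumor 1 was highest in both. Before-peak tumor 2, highest of its group in Hk3, had the lowest neutrophil sum. Summed macrophage genes were at 6481, 10133 and 7526 CPM in with-peak tumors, against 5889, 3642 and 4773 CPM in before-peak tumors, with with-peak tumor 1 lowest of its group. Pdk4, the pyruvate dehydrogenase kinase induced in fasting and in muscle, was at 8.56, 17.8 and 22.1 CPM with peak, against 1.77, 2.74 and 5.999 CPM before peak (log2 fold change 2.20, SE 0.52, edgeR adjusted p = 0.270, DESeq2 adjusted p = 4.56e-04). Pgam2, the muscle phosphoglycerate mutase, was at 3.58, 22.3 and 15.6 CPM with peak, against 4.41, 2.04 and 1.75 CPM before peak, following the muscle genes, of which it is one (DESeq2 adjusted p = 0.00431, edgeR adjusted p = 0.397). The part of muscle and myeloid RNA in these differences was not tested. Eno3, the muscle enolase, Ldhb, the B chain of lactate dehydrogenase, and Pdha1, a subunit of pyruvate dehydrogenase, had log2 fold changes of 0.46, 0.33 and -0.11.

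Of 15 regulators of the HIF pathway, 14 were tested, with 7 log2 fold changes of each sign; edgeR called 0 and DESeq2 0. Hif1a, the oxygen-regulated subunit, was at 225, 204 and 190 CPM with peak, against 202, 200 and 248 CPM before peak (log2 fold change -0.07), though HIF is set mainly by protein stability, which RNA does not show. Epas1, which encodes HIF-2α, was at 73.6, 115 and 58.0 CPM with peak, against 53.9, 56.5 and 79.1 CPM before peak (log2 fold change 0.38). Its highest tumor, with-peak tumor 2, also had the highest sum of the 10 endothelial genes, 688 CPM; their part was not tested. Vhl was at 35.8, 34.4 and 30.8 CPM with peak, against 26.6, 25.8 and 27.6 CPM before peak, without overlap (log2 fold change 0.34, edgeR adjusted p = 0.477). Arnt, Egln2 and Hif1an, the partner of the HIF alpha subunits, another prolyl hydroxylase and the asparaginyl hydroxylase of HIF, had log2 fold changes of -0.05, 0.17 and 0.10. Crebbp, a coactivator of HIF, had one of -0.19.

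Among the 35 other hypoxia targets edgeR called 0, with a median log2 fold change of 0.03 and 20 positive. DESeq2 called 1 higher, where it called 1.44% of all genes higher. This was Plin2, the coat protein of lipid droplets, which is also abundant in lipid-laden macrophages. Plin2 was at 319, 296 and 232 CPM with peak, against 152, 194 and 160 CPM before peak (log2 fold change 0.74, SE 0.15, edgeR adjusted p = 0.157, DESeq2 adjusted p = 0.00166). Car12, another carbonic anhydrase, and Kdm4b, a histone demethylase, had log2 fold changes of -0.50 and -0.37, both with an edgeR adjusted p of 0.47. Angptl4, a secreted lipase inhibitor, and Lox, the collagen cross-linking oxidase, were at 81.5 ± 35.9 and 349 ± 80.2 CPM with peak and 55.7 ± 24.6 and 250 ± 115 CPM before peak (SD, n = 3 each), with log2 fold changes of 0.55 and 0.48.

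Counting limits some of these genes. The libraries carry no strand, and 12 of the 36 genes overlap an exon of a gene on the opposite strand: Hk1, Pfkm, Pfkp, Aldoa, Tpi1, Gapdh, Slc2a1, Car9, Bnip3, Ndrg1, Ankrd37 and Mxi1. Pkm and Pfkm overlap a gene on the same strand. Reads shared with Gm45507 (Bnip3), Gm17035 (Ndrg1) and Pitrm1 (Pfkp), which overlap on the opposite strand, cannot be split without strand, so these levels are uncertain. Eno1 and Gapdh have near-identical copies elsewhere in the genome (at least 95% identity over at least 150 bases): 3 such rows held 33.8% as many counts as Eno1, and 53 rows 12.3% as many as Gapdh. With the copies added, Eno1 was at 1446, 1300 and 1456 CPM with peak, against 1310, 1526 and 1412 CPM before peak. Gapdh with its copies had a log2 ratio of group means of 0.18, the same as without them. Aldoa has a second row, ENSMUSG00000114515, with 5 to 31 counts a tumor, which was left out.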

How the data were processed

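RNA from 3 with-peak and 3 before-peak tumors was, per the labels' protocols, isolated with Trizol from snap-frozen tissue, enriched with oligo(dT) and read from both ends in unstranded libraries. The tools FastQC and STAR and the build mm10 come from the submitters' processing notes. Counter and annotation: not given in the sources used here. What the authors deposited are unnormalised counts for each gene. Of 23508 IDs, 23479 matched GENCODE M21 (GRCm38), which gave symbols, overlaps and transcript lengths.

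Counts were scaled by TMM and filtered with filterByExpr (minimum count 10, minimum total 15) in edgeR 4.0.16 (R 4.3.3). With-peak were compared with before-peak tumors by edgeR's two-sided quasi-likelihood test with robust dispersion over all 16755 genes, Benjamini-Hochberg adjusted (threshold 0.05). SE is the absolute log2 fold change over the square root of F, and 95% intervals use the fit's degrees of freedom. DESeq2 1.42.0 and limma-voom (limma 3.58.1) were alternatives. RPKM and shares use 1 APPRIS principal transcript a gene. Scores use log2 CPM with a prior count of 2. Within groups, the chi-square between paired count columns was 18.8 to 31.9 times its degrees of freedom, above counting noise, so no 2 columns were treated as 1 library; it does not show that the tumors were independent.

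The genes and lists were chosen with earlier results of these data known. The naming rule gave every tumor's value for members with an unadjusted p under 0.05 or groups without overlap and for 15 members set by name; it named 16 pathway genes whatever their value and up to 3 with the smallest p in each pathway list. Tumor-by-tumor extremes, isoenzyme shares and promoter windows were chosen after values were seen. Intervals do not cover technical steps before counting.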

Additional observations from a re-analysis of the deposited data

How the results depend on the processing

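No setting called any of the 36 genes at an adjusted p under 0.05, nor at an adjusted p under 0.1 in the edgeR test. Of 576 values, one for each of the 36 genes in each of 16 other settings, 529 kept their sign and 47 changed it; Slc16a3 and Slc16a1 were not among those that changed, with adjusted p of 0.282 to 0.897 and 0.386 to 0.939. Over all genes, 0 were called higher and 0 lower; the counts were 242 and 24 by DESeq2, 26 and 3 without a filter, 32 and 3 at an adjusted p under 0.1, and 4 higher when tumors 3 of both groups were left out (2 against 2); the cause was not tested. Replicate numbers are not said to pair tumors, and departures from the group mean had correlations between tumors of one number of -0.06, -0.10 and 0.03, and with the replicate block 1 gene was called higher and 0 members were lower at an unadjusted p under 0.05. Leaving out 1 tumor gave 0 to 17 genes higher, 17 of them without before-peak tumor 2, 13 without before-peak tumor 3 and 9 without with-peak tumor 1, and 0 lower.

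At an unadjusted p under 0.05, 1 member was higher and 1 lower. Leaving out 1 tumor gave 1 to 4 higher (4 without before-peak tumor 2; 2 without before-peak tumor 3 or with-peak tumor 1) and 0 to 2 lower (2 without before-peak tumor 1; 0 without before-peak tumor 2, with-peak tumor 2 or with-peak tumor 3). With library size alone 0 were higher, 2 against 2 tumors gave 2 higher and 0 lower, and with-peak tumor 1 alone against 3 before-peak tumors gave 0 and 0, its spread assumed to be that of the other group. The members' median log2 fold change ran from -0.05 to 0.14 as single tumors were left out, and was -0.02 with library size alone.

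Most sign changes were in values near 0. With library size alone, Hk1 was at -0.0033, Ldha at -0.047 and Mxi1 at -0.043. In 2 against 2 tumors Pgam1 was at -0.032, Ldha at -0.082, Bnip3l at -0.027, P4ha1 at -0.038, Ddit4 at -0.17 and Mxi1 at -0.046. With with-peak tumor 1 alone Hk2 was at 0.31, Eno1 at 0.032, Ldha at -0.083, Slc2a3 at -0.046, Pdk1 at 0.021, Car9 at 0.12, Ankrd37 at 0.057 and P4ha2 at -0.20. Leaving out single tumors turned the sign of 20 members, over these ranges: Hk1 -0.041 to 0.17, Hk2 -0.25 to 0.18, Pfkl -0.21 to 0.0075, Pfkp -0.029 to 0.21, Aldoc -0.14 to 0.20, Eno1 -0.069 to 0.028, Eno2 -0.38 to 0.041, Pkm -0.11 to 0.059, Ldha -0.066 to 0.058, Slc2a3 -0.16 to 0.73, Pdk1 -0.28 to 0.17, Pfkfb4 -0.31 to 0.017, Egln1 -0.21 to 0.14, Egln3 -0.16 to 0.12, Bnip3l -0.0069 to 0.16, Ankrd37 -0.32 to 0.0078, P4ha1 -0.0059 to 0.18, P4ha2 -0.0012 to 0.24, Ddit4 -0.075 to 0.34, Mxi1 -0.13 to 0.23. The other 16 kept their sign, over these ranges: Gpi1 0.12 to 0.31, Pfkm 0.27 to 0.57, Aldoa 0.15 to 0.34, Tpi1 0.057 to 0.18, Gapdh 0.13 to 0.23, Pgk1 0.083 to 0.33, Pgam1 0.044 to 0.26, Slc2a1 -0.51 to -0.0098, Slc16a1 -0.36 to -0.22, Slc16a3 0.29 to 0.54, Pfkfb3 0.023 to 0.47, Car9 -0.33 to -0.012, Bnip3 0.0096 to 0.27, Ndrg1 -0.51 to -0.12, Adm -0.65 to -0.019, Kdm3a -0.35 to -0.013. Slc2a3 rests on the fewest counts, 50 to 176 a tumor.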
